A study of Mus musculus with 6 samples.

Results

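The simple epithelial keratins are described here in mouse embryonic stem cells that lack Mettl5. The members are the 7 genes Krt7, Krt8, Krt18, Krt19, Krt20, Krt23 and Krt80, found in the deposited gene table by their GENCODE M21 symbols. They are 7 of 24191 genes in the table, and 7 of the 26 keratin genes in it, with 19 other keratins. They were proposed with the difference between the genotypes already known, so that difference is given for them as a description and no p-value is attached to it.

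PolyA RNA was sequenced from the J1 line of mouse embryonic stem cells as 3 libraries of Mettl5 -/- cells (KO) and 3 libraries of wild-type cells (WT). The gene encodes METTL5, an enzyme that methylates an adenosine of the small-subunit ribosomal RNA. All 6 cultures were kept for 7 days in serum with LIF, the cytokine that holds mouse embryonic stem cells undifferentiated. The labels do not say how the Mettl5 alleles were made, whether the KO cells are 1 clone, or whether replicates were separate cultures, so p-values measure only the spread between these libraries.

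Keratins are the intermediate filament proteins of epithelial cells. Each filament is built from pairs of an acidic type I chain and a basic type II chain, and a chain without a partner is unstable, so the RNA of both types matters. Krt8 (type II) and Krt18 (type I) encode the main pair of simple, single-layered epithelia and appear in the mouse embryo with the trophectoderm. Krt7 (type II) and Krt19 (type I) join them in ducts, trophoblast and other simple linings. Krt20 (type I) is known from gut and bladder lining, Krt23 (type I) is a little-studied divergent keratin, and Krt80 (type II) encodes a chain found near desmosomes. In the mouse the type I genes lie on chromosome 11 and the type II genes on chromosome 15, except for Krt18, which lies beside Krt8 on chromosome 15.

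RefSeq promoter windows on GRCm38.p6 were held for 5 of the 7 members, namely Krt7, Krt8, Krt18, Krt20 and Krt23. The 250 bases before the RefSeq start are shown for the 4 members with the greatest fold changes, so that these stretches can be compared. The RefSeq starts differ from the ends of the GENCODE M21 gene spans given further on. By those spans the Krt7 window lies inside the gene, and those of Krt8 and Krt18 lie partly inside. Capitals mark matches on either strand. The letters searched were those of the TATA box, given as TATAAA, and of the GATA factors, given as AGATAA. The TEAD factors were given as GGAATG and the AP-1 factors as TGANTCA. The KLF factors were searched for by CCNCACCC. The AP-2 factors were searched for by GCCNNNGGC.
Krt8 (chr15:102004343-102004592, minus strand): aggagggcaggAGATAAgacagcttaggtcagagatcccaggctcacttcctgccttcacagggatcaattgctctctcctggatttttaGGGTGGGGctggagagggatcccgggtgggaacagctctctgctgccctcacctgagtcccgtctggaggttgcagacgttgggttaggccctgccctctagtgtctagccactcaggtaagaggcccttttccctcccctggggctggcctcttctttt
Krt18 (chr15:102027966-102028215, plus strand): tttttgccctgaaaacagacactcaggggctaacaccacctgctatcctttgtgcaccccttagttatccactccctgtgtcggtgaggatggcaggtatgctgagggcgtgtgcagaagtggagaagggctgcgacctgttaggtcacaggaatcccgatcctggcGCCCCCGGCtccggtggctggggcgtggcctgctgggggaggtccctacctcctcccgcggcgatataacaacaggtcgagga
Krt7 (chr15:101412153-101412402, plus strand): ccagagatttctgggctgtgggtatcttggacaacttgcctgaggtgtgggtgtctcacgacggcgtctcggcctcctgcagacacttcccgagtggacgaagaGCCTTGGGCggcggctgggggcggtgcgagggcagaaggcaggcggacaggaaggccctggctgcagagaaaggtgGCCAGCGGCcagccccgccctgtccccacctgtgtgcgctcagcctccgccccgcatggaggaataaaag
Krt20 (chr11:99438154-99438403, minus strand): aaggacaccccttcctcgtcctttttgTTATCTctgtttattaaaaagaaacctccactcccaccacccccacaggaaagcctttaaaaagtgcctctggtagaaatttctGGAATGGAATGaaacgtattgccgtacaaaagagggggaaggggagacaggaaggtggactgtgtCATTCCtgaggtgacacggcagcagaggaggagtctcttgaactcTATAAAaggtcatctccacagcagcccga

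No motif was found in all 4 stretches. Krt20 held 3 matches to GGAATG, of which a pair shares 1 base, and a TATA box that starts 29 bases before the RefSeq start. In Krt8 a TATAAA starts at the last base shown and runs past the start, so it is not in capitals. Krt7 held 2 matches to the AP-2 letters and Krt18 held 1. Krt8 and Krt20 each held 1 match to the GATA letters, and Krt8 held 1 to the KLF letters. None of the 4 held the AP-1 letters. Among 32851 windows of the same length, 12.4% held the TATA box letters, 6.75% those of AP-1, 9.99% those of GATA, 12.6% those of TEAD, 14.9% those of KLF and 13.7% those of AP-2. These matches describe letters, and nothing about binding was measured.

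Mettl5 was at 3.52 ± 0.176 on the TPM scale in KO and 49.2 ± 0.975 in WT libraries (SD, n = 3), so it was low in every library labelled KO. The TPM scale is the deposited transcripts-per-million column, which is corrected for gene length and was rescaled by the authors between libraries. Estimated depth was 38540000 to 59640000 fragments per library. Of the 8 embryonic stem cell markers listed, 1 was called higher and 6 lower. In the limma fit over all 24183 genes tested, 33.6% were called higher and 28.9% lower. Zfp42, Klf4, Esrrb, Sox2, Tdgf1 and Pou5f1, the gene of OCT4, fell by 1.24, 1.05, 0.88, 0.58, 0.46 and 0.09 on the log2 scale, Dppa5a rose by 0.31 and Nanog was not called. Pou5f1 was at 1330 ± 41.7 in KO and 1498 ± 54.2 in WT libraries (SD, n = 3).

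Of the 7 keratins, 6 were higher in KO libraries and 1, Krt80, was lower. KO and WT libraries did not overlap for any of the 7 on the TPM scale. Over all 24183 genes tested, 32.5% were higher and 35.7% lower without overlap. The limma fit over all genes (adjusted p under 0.05) called 62.6%, of all genes 33.6% higher and 28.9% lower, which is the background for the gene lists described further on. The median log2 fold change of the 7 members was 4.42, and that of all genes tested was 0.00. In bulk RNA a larger share of keratin-expressing cells and more keratin RNA per cell cannot be told apart. The plot of keratin levels by library shows all 7.

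**Figure D1:**
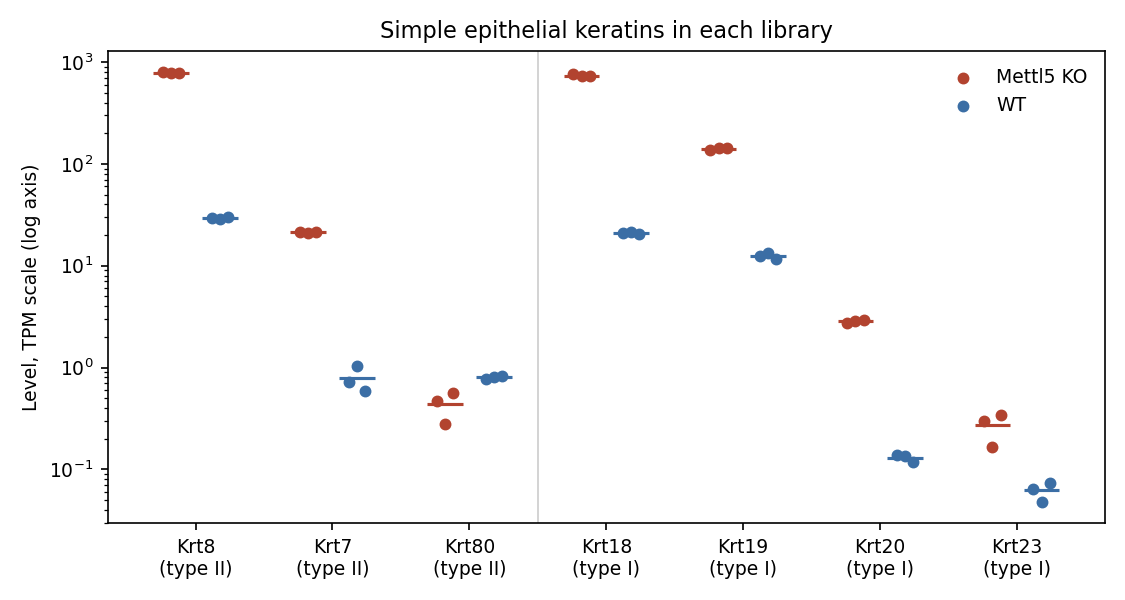
Level of each simple epithelial keratin on the TPM scale (log axis) in 3 Mettl5 KO (red) and 3 WT (blue) libraries, with type II genes on the left and type I genes on the right. Points are libraries and bars are group means. Krt8 and Krt18 lie at 721 or more in every KO library and at 29.96 or less in every WT library, and Krt80 alone is lower in KO.

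Krt8 and Krt18, the central pair, had the highest levels of the 7 in both genotypes. Krt8 (ENSMUSG00000049382, chr15:101996698-102004482 on mm10) measured 794, 773 and 779 on the TPM scale in KO libraries 1, 2 and 3, against 29.3, 29.0 and 29.96 in WT libraries 1, 2 and 3. Its partner Krt18 (ENSMUSG00000023043, chr15:102028180-102032027) was at 758, 721 and 731 in KO libraries, against 21.1, 21.2 and 20.3 in WT libraries. Within each genotype the 3 libraries were close, with coefficients of variation of 1.39% in KO and 1.68% in WT for Krt8 and 2.59% and 2.41% for Krt18. Mean levels were 26.6-fold higher in KO for Krt8 and 35.3-fold higher for Krt18. On the log2(scaled reads + 1) scale their fold changes were 4.79 (SE 0.0248) and 5.20 (SE 0.0295). Among all genes tested, 69 had a larger fold change than Krt8 and 41 a larger one than Krt18. By level, Krt8 ranked 200 to 204 of all genes in KO libraries and 4215 to 4315 in WT libraries.

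Because the chains pair, their balance was followed in each library. The ratio of Krt8 to Krt18 on the TPM scale was 1.05, 1.07 and 1.07 in KO libraries, against 1.39, 1.36 and 1.48 in WT libraries. The KO libraries were thus nearer to equal levels of both RNAs, and the groups did not overlap. Scaled reads, the deposited column that is not a level per length, gave ratios of 1.49 in KO and 1.98 in WT libraries, with the same order. When all members were summed by type, the ratio of type II to type I RNA was 0.909, 0.917 and 0.915 in KO libraries, against 0.911, 0.886 and 0.973 in WT libraries, and here the groups overlapped. The sums behind that ratio were 804 ± 11.1 (type II) and 880 ± 16.0 (type I) in KO, and 31.0 ± 0.307 and 33.6 ± 1.29 in WT libraries (SD, n = 3).

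The other chains of simple linings followed at lower levels. Krt19 (ENSMUSG00000020911, chr11:100140810-100148665), a type I keratin that lacks the usual tail domain, measured 136, 142 and 142 on the TPM scale in KO libraries, against 12.6, 13.4 and 11.7 in WT libraries. Its mean was 11.1-fold higher in KO, a smaller ratio than those of Krt8 and Krt18, and its log2 fold change was 3.55 (SE 0.0472). Krt7 (ENSMUSG00000023039, chr15:101411043-101430313) was at 21.3, 20.8 and 21.6 in KO libraries, against 0.726, 1.05 and 0.587 in WT libraries. WT libraries varied more for Krt7 than KO libraries did, with a coefficient of variation of 30.04% on a mean of 24.2 scaled reads. The log2 fold change of Krt7 was 4.81 (SE 0.177).

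Krt20 (ENSMUSG00000035775, chr11:99428403-99438150) was low in every library but had a fold change close to those of the leading pair. It measured 2.77, 2.89 and 2.94 on the TPM scale in KO libraries, against 0.137, 0.134 and 0.118 in WT libraries, a log2 fold change of 4.42 (SE 0.130). Krt23 (ENSMUSG00000006777, chr11:99477974-99493137) was at 0.302, 0.165 and 0.345 in KO libraries, against 0.0648, 0.0482 and 0.0743 in WT libraries. Divided by each library's step, the value that 1 read is worth, Krt23 came to 20, 16 and 33 reads in KO libraries and 6, 4 and 5 reads in WT libraries, each within 0.02 of a whole number. Its log2 fold change of 1.93 (SE 0.341) therefore rests on few reads.

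Krt80 (ENSMUSG00000037185, chr15:101347444-101370162) went the other way. It measured 0.474, 0.276 and 0.566 on the TPM scale in KO libraries, against 0.769, 0.809 and 0.819 in WT libraries. The KO mean was 0.549 times the WT mean, with a log2 fold change of -0.87 (SE 0.231). KO replicate 2 was the lowest library, and without it the log2 fold change was -0.57. Krt80 and Krt7 are neighbouring keratin genes on chromosome 15, and they differed in direction. In GENCODE M21 each overlaps another gene, Gm35853 and Gm671, and the strand setting of the authors' counting is not stated.

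In the order of mean levels, KO libraries had Krt8, Krt18, Krt19, Krt7, Krt20, Krt80 and Krt23, from high to low. WT libraries had Krt8, Krt18, Krt19, Krt80, Krt7, Krt20 and Krt23. The ranges of neighbours in these orders did not overlap, except for Krt80 with Krt23 in KO libraries and Krt80 with Krt7 in WT libraries. Summed over the 7 members, the level was 1713, 1660 and 1677 in KO libraries, against 64.6, 65.6 and 63.6 in WT libraries. The members made up 0.165% of the whole TPM column in KO and 0.00664% in WT libraries.

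Keratin RNA also differed in composition. The 7 members held 98.5% ± 0.0729 of all keratin RNA on the TPM scale in KO and 54.8% ± 0.0317 in WT libraries (SD, n = 3). Krt8 and Krt18 together held 88.9% ± 0.395 in KO and 42.6% ± 0.677 in WT. The type I genes Krt42 and Krt17, which encode closely related chains of skin appendages, held 0.527% and 0.455% in KO libraries and 24.2% and 13.2% in WT libraries. Krt222, which was given neither type, was left out of the ratio of type II to type I RNA over all keratins. That ratio was 0.890 ± 0.0027 in KO and 0.368 ± 0.013 in WT libraries. Total keratin RNA was 1708 ± 26.3 on the TPM scale in KO and 118 ± 1.84 in WT libraries. The plot of composition shows these shares for each library.

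**Figure D2:**
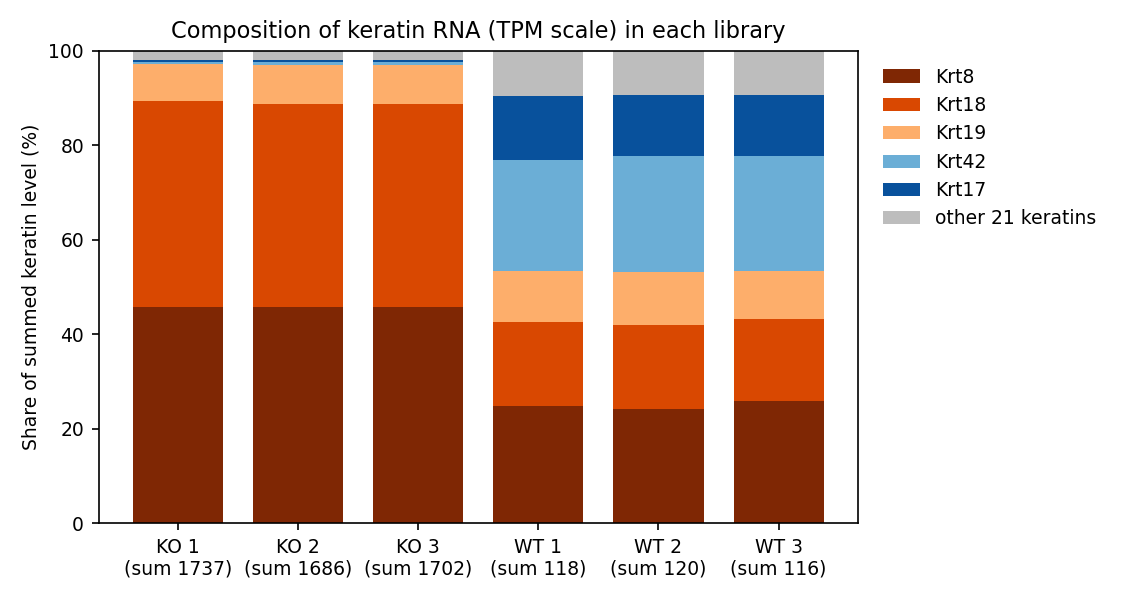
Share of the summed keratin level (TPM scale, %) held by Krt8, Krt18, Krt19, Krt42, Krt17 and the other 21 keratins in each library, KO on the left and WT on the right, with the summed level under each bar. Krt8 and Krt18 hold 88.6% to 89.3% in KO libraries and 41.9% to 43.3% in WT libraries.

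Among the other keratins more genes were lower than higher. Of 47 other keratin genes in GENCODE M21, 19 were in the table and tested, of which 2 were higher, 10 lower and 7 not called in KO, with a median log2 fold change of -0.75. With a mean of at least 10 scaled reads required, 7 rather than 10 were lower. Krt14, a type I keratin of basal cells in stratified epithelia, rose to 3.13 ± 0.0743 on the TPM scale in KO, against 0.645 ± 0.175 in WT libraries (SD, n = 3), which is 2.35 on the log2 scale (SE 0.186, limma adjusted p 3.6e-06). The other higher gene, Krt90, was named after its values were seen, and was at 0.229 ± 0.00629 in KO and 0.00532 ± 0.00469 in WT libraries. Krt5, the type II partner of Krt14, was at 0.0902 ± 0.0229 in KO and 0.0521 ± 0.0262 in WT and was not called (limma adjusted p 0.0903).

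The lower keratins with a mean of 1 TPM or above in WT libraries were Krt42, Krt17, Krt16 and Krt10, all type I. Krt42 fell to 9.0 ± 0.709 on the TPM scale in KO, against 28.5 ± 0.955 in WT libraries (SD, n = 3), or -1.61 on the log2 scale (limma adjusted p 1.96e-08). Krt17, a keratin of hair follicles and wounded skin, fell to 7.77 ± 0.122 in KO, against 15.5 ± 0.431 in WT (-0.94 on the log2 scale, limma adjusted p 5.98e-08). Krt16, induced with it in wounded skin, was at -1.19 on the log2 scale (limma adjusted p 3.5e-05) and Krt10, a keratin of differentiated epidermis, at -0.50 (limma adjusted p 0.00585). Krt17 and Krt14 transcripts share 756 bases at 91.005% identity, so reads may be split between them, although their RNA differed in direction. Of the members, Krt8 had 1 similar annotated gene, the pseudogene Krt8-ps (98.6% over 941 bases), Krt18 had 1 as well, Gm5200 (90.45% over 1267 bases), and the other 5 had none. Neither of those genes was among the rows of the table used here.

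**Figure D3:**
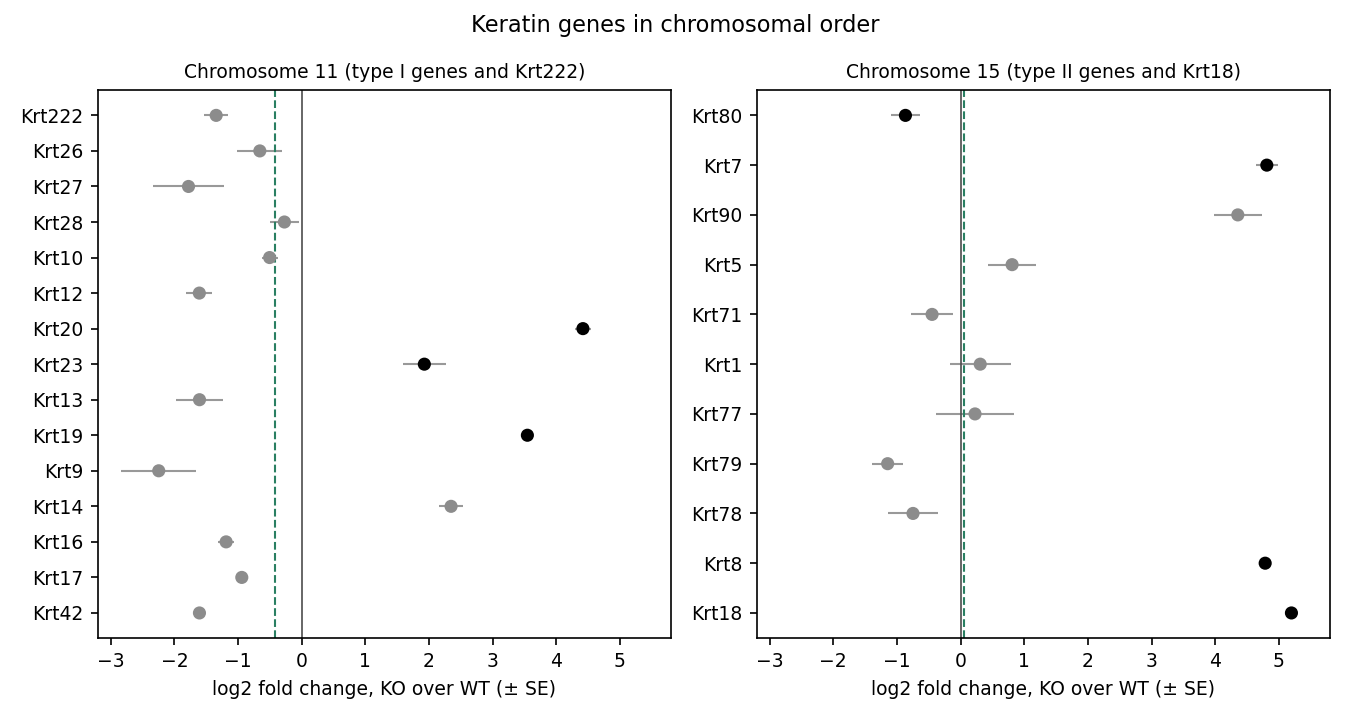
Log2 fold change (KO over WT, ± SE, log2(scaled reads + 1) scale) of the 26 keratin genes in chromosomal order, with the 7 simple epithelial keratins in black, the others in grey, and the median of all tested genes of the chromosome as a dashed line. On chromosome 11, Krt19, Krt20 and Krt23 stand right of 0 among genes that are mostly left of it.

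The surroundings of the 7 genes were read next. Genes on chromosome 11 were lower in KO in general, with a median log2 fold change of -0.41 over 1787 tested genes, against 0.05 over 891 genes on chromosome 15. Of the 1787 genes, 1028 were called lower and 258 higher, and of the 891 genes, 241 were called lower and 338 higher. These are the backgrounds for the counts by chromosome and by neighbourhood that follow. Of the 12 other keratins on chromosome 11, 9 were lower and 1 higher, and of the 7 on chromosome 15, 1 was lower and 1 higher, all 7 being under 1 on the TPM scale in both genotypes. On chromosome 11, 7 of the 12 were also under 1 in both genotypes. With log2 values centred per chromosome, 8 rather than 10 other keratins were lower, since Krt10 and Krt27 were no longer called, and the values of Krt19 and Krt20 became 3.94 and 4.81.

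Within 250 kb of Krt19, 10 other protein-coding genes were tested, of which 8 were lower and 2 higher, with a median log2 fold change of -1.06. Of these 10, 6 were other keratins already counted above. The nearest tested genes on either side, the keratins Krt13 and Krt9, had log2 fold changes of -1.61 (limma adjusted p 0.00408) and -2.25 (limma adjusted p 0.00811), both at under 1 on the TPM scale. The higher genes were Krt14 and Jup, which encodes the junction protein plakoglobin and rose by 0.39 (limma adjusted p 3.24e-06). Around Krt20 and Krt23 lay 7 tested neighbours, of which 6 were other keratins already counted above. Of the 7, 4 were lower and none higher, with a median of -0.66. That share of lower genes was near the 1028 of 1787 for the whole chromosome. Krt12, a keratin of the cornea whose gene is the nearest of these to Krt20, fell by 1.61 (limma adjusted p 9.69e-05).

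Around Krt8 and Krt18 the neighbours were mixed. Of 15 other tested protein-coding genes within 250 kb, 4 were higher and 7 lower. Their log2 fold changes ran from -2.25 to 3.11 around a median of -0.14. Eif4b, a translation initiation factor gene and the nearest neighbour on the Krt18 side, differed by 0.08 on the log2 scale (limma adjusted p 0.026), and by -0.07 with libraries rescaled to equal totals. Igfbp6, an IGF binding protein gene, was the neighbour with the largest rise, to 5.95 ± 0.608 on the TPM scale in KO, against 0.721 ± 0.190 in WT libraries (SD, n = 3). Csad and Soat2, genes of taurine and cholesterol ester synthesis, fell by 1.21 and 2.25 on the log2 scale. Around Krt80 and Krt7, 1 of 7 neighbours was higher, Krt90, and 3 were lower. These neighbours were chosen by distance, and the plot of neighbouring genes shows them for 2 of the 4 loci.

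**Figure D4:**
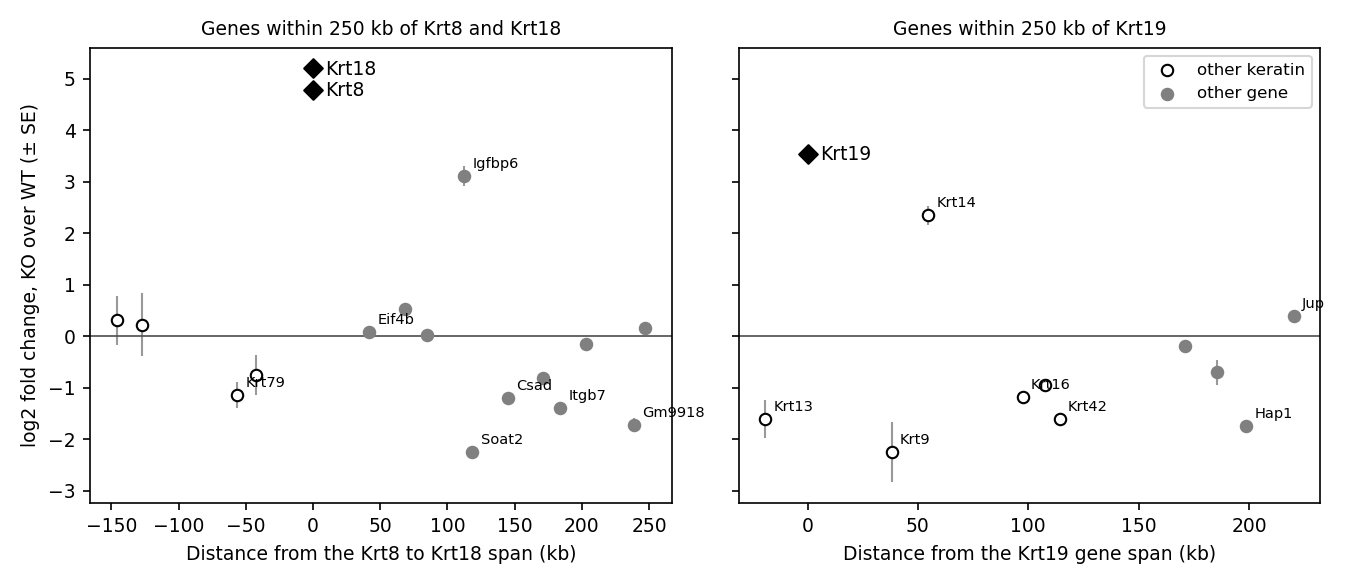
Log2 fold change (KO over WT, ± SE) of protein-coding genes within 250 kb of the Krt8 and Krt18 span (left) and of Krt19 (right), by distance in kb along the chromosome, with the members as diamonds at 0, other keratins as open circles and other genes in grey. Most neighbours lie between -2.25 and 0.52, well under the members, with Igfbp6 and Krt14 as the higher exceptions.

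Genes that work with keratin filaments were mostly higher. Of 22 genes of linkers, anchors, chaperones and regulators, 14 were higher and 3 lower, and the median log2 fold change was 0.41. Dsp, which encodes desmoplakin, the protein that ties keratin filaments to desmosomes, rose to 33.6 ± 2.24 on the TPM scale in KO, against 1.69 ± 0.243 in WT libraries (SD, n = 3), or 4.37 on the log2 scale (limma adjusted p 6.83e-10). Sfn, the gene of stratifin, an adaptor of epithelial cells, rose to 324 ± 7.56 in KO, against 34.9 ± 0.695 in WT (3.27 on the log2 scale, limma adjusted p 4.35e-12). Fam83h, which encodes an organiser of keratin filaments, rose by 1.84 and the linker gene Dst by 0.94. The 3 lower genes, named after their values were seen, were Col17a1 (-1.50), Evpl (-0.78) and Fbf1 (-0.44). The hemidesmosome integrin gene Itgb4 and the plakophilin genes Pkp1, Pkp2 and Pkp3 were among the 5 not called.

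Epithelial junction and identity genes gave 23 of 27 higher and 2 lower, with a median log2 fold change of 0.77. The tight junction genes Cldn6 and Cldn4 rose to 134 ± 2.78 and 101 ± 1.99 on the TPM scale in KO, against 34.6 ± 1.23 and 28.1 ± 1.22 in WT libraries (SD, n = 3; limma adjusted p 1.34e-10 and 3.42e-10). The membrane protease genes Prss8 and St14, which encode prostasin and matriptase, rose by 2.02 and 1.47 on the log2 scale. Changes of the general epithelial genes were small, with log2 fold changes of 0.40 for Cdh1 (E-cadherin) and 0.15 for Epcam, both called, and that of Epcam was -0.01 with equal totals. These 2 genes, and the lower genes Ehf (-1.96) and Tjp3 (-0.91), were named after their values were seen. Most of this list was present in both genotypes, since 25 of the 27 genes had a mean of 1 TPM or above in KO cells, and 24 in WT cells.

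Transcription factors tied to keratin genes, or to epithelia that use them, had 15 of 24 tested members higher and 5 lower (median 1.00). Fosl2 and Jun, subunits of AP-1, rose to 10.8 ± 0.509 and 9.85 ± 0.218 on the TPM scale in KO, against 1.0 ± 0.0316 and 1.72 ± 0.137 in WT libraries (SD, n = 3; limma adjusted p 8.89e-11 and 1.47e-09). Cdx2, a trophectoderm and gut factor, rose to 5.38 ± 0.144 in KO, against 0.258 ± 0.0118 in WT, and Klf4 fell by 1.05 on the log2 scale. Among intermediate filament genes outside the keratin family, 6 of 15 were higher, 5 were lower and the median was -0.02. Vim, the vimentin gene of mesenchymal and many cultured cells, rose to 294 ± 7.5 in KO, against 49.5 ± 4.69 in WT libraries. The neurofilament genes differed in direction, since Nefl and Nefm rose by 2.21 and 2.97 and Nefh fell by 1.54. The neural progenitor gene Nes rose by 2.51. The muscle gene Des and the peripheral neuron gene Prph fell by 0.63 and 0.52, and the other lower genes were Ina (-0.09) and Lmnb2 (-0.39). Nefh, Des, Prph, Ina and Lmnb2 were named after their values were seen.

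**Figure D5:**
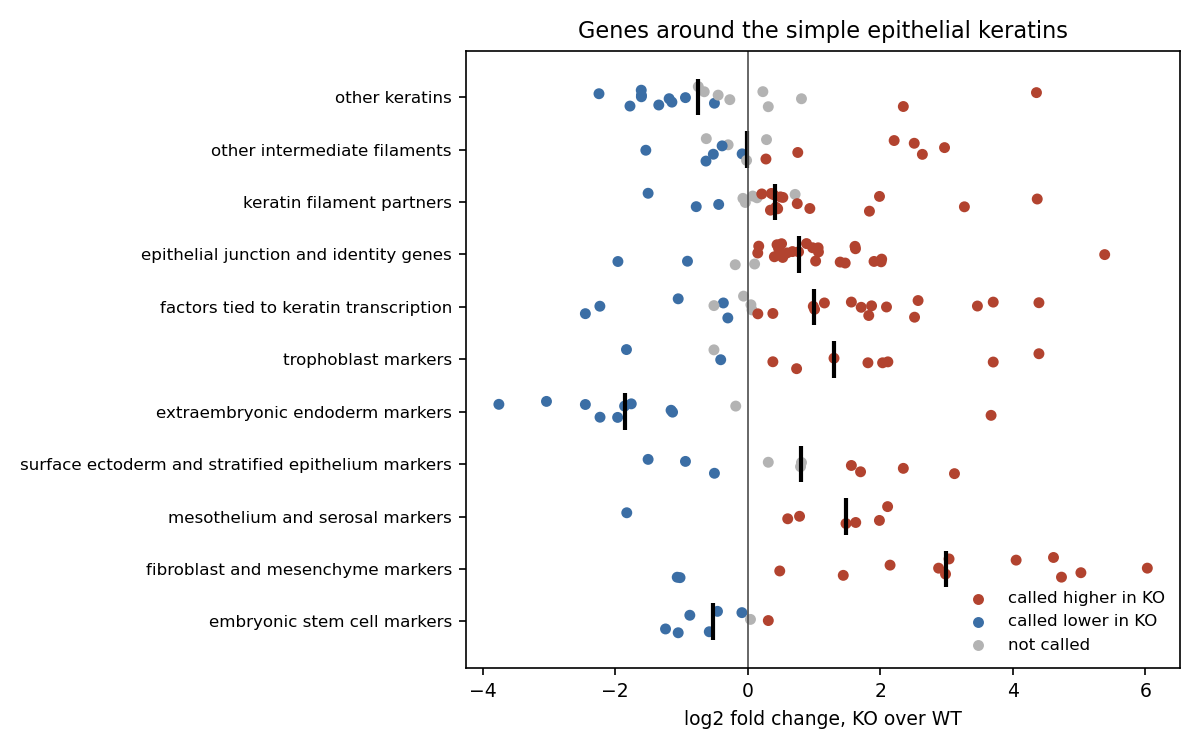
Log2 fold change (KO over WT) of each tested gene in 11 lists, coloured by its call in the limma fit over all genes, with the list median as a black bar. The 7 simple epithelial keratins are left out. Junction genes lie mostly right of 0, other keratins mostly left of it, and extraembryonic endoderm markers furthest left.

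Markers of cell types that use these keratins were read beside them. Trophoblast markers had 8 of 11 tested members higher and 2 lower, with a summed level of 37.99 to 38.6 on the TPM scale in KO and 19.7 to 20.6 in WT libraries. Cdx2, Eomes, Hand1 and Gata3 rose by 4.39, 2.11, 1.81 and 3.70 on the log2 scale, each with a mean under 7 on the TPM scale in KO. The lower genes were Syna (-1.83) and Ascl2 (-0.41). Tfap2c gave the largest part of the sums, at 15.1 ± 0.199 in KO and 12.1 ± 0.390 in WT libraries, and rose by 0.38. Syna, Ascl2 and Tfap2c were named after their values were seen. Of the defining genes, Elf5 was at 0.139 ± 0.0344 in KO and 0.212 ± 0.0218 in WT libraries and was not called, and Gcm1 was at 0.842 ± 0.0343 and 0.362 ± 0.115. The defining genes Tpbpa and Prl3d1 had no matching row in the gene table, so they could not be read. Mesothelium markers had 6 of 7 higher and 1 lower, summing to 15.2 in all KO libraries and 8.20 to 8.83 in WT libraries. Wt1 and Msln rose by 0.78 and 0.60, and Upk3b fell by 1.83.

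Fibroblast and mesenchyme markers had 11 of 13 higher and 2 lower, with a median log2 fold change of 2.98. They summed to 41.0 to 42.5 on the TPM scale in KO and 17.1 to 19.8 in WT libraries. Lox, Col3a1 and Col1a1 rose by 6.03, 5.03 and 4.73 on the log2 scale. Col1a1 was at 17.7 ± 0.444 in KO and 0.694 ± 0.316 in WT libraries. Col1a2 and Dcn were at 2.96 ± 0.0706 and 0.670 ± 0.0825 in KO and 0.381 ± 0.0348 and 0.0821 ± 0.0451 in WT (SD, n = 3). Lum rose by 2.88, to only 0.114 ± 0.0218 in KO, against 0.0145 ± 0.0197 in WT libraries. With a mean of at least 10 scaled reads required, 10 rather than 11 markers of this list were higher. Pdgfra fell by 1.02. Thy1, the other lower gene, was named after its values were seen. It was at 5.91 ± 0.831 in KO and 13.1 ± 1.35 in WT libraries. Extraembryonic endoderm markers had 9 of 11 lower and 1 higher, and summed to 16.5 to 17.6 in KO and 53.1 to 55.1 in WT libraries. Cubn, Lama1, Dab2, Sox17 and Gata4 fell by 3.76, 2.23, 1.14, 3.04 and 1.16, and Afp and Ttr had no matching row in the gene table. The higher gene, Thbd, was named after its values were seen. It rose by 3.67 on the log2 scale, to 0.539 ± 0.0276 in KO, against 0.0412 ± 0.0154 in WT libraries. Markers of surface ectoderm and stratified epithelium had 4 of 10 higher and 3 lower, and summed to 15.4 to 16.2 in KO and 21.3 to 22.8 in WT libraries. Krt14, Krt5 and Krt17 were as given above, and Trp63 had no matching row in the gene table. Ivl, a gene of the outer epidermis, was listed at 0 in every WT library, and no other tested marker was at 0 in all libraries of a genotype. In KO libraries Ivl was at only 0.0790 ± 0.0398 on the TPM scale. With a mean of at least 10 scaled reads required, 3 rather than 4 markers of surface ectoderm and stratified epithelium were higher. The part of any such cells in the keratin levels was not tested.

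Genes whose profiles lay nearest to those of Krt8 and Krt18 were looked up among 9752 genes whose mean was 5 TPM or above in the higher genotype. Likeness was the distance between log2(scaled reads + 1) profiles over the 6 libraries, each centred on its own mean, so it reflects mainly the size of the genotype difference. Nearest to Krt8 were Cyp1b1, a cytochrome P450 gene (distance 0.106), the annexin gene Anxa1 (0.171), Wnt4 (0.224), Phldb2 (0.257), Igf2 (0.269), Fhl2 (0.306), Pmp22 (0.372) and Galnt14 (0.380). Anxa1 was the most abundant of these, at 151 ± 2.6 on the TPM scale in KO and 5.41 ± 0.308 in WT libraries (SD, n = 3). Krt18 itself lay at 0.512 from Krt8, Krt20 at 0.493, Krt7 at 0.597 and Krt19 at 1.53. Nearest to Krt18 were Ptgs2 (0.262), Sprr2a2 (0.265), Pmp22 (0.326), Anxa1 (0.400), the smooth muscle gene Tagln (0.426), Ccn4 (0.431) and Efemp1 (0.485).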

How the data were processed

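PolyA RNA-seq of 3 KO and 3 WT libraries was used, grouped by sample title. The submitters' processing notes name kallisto, sleuth and the mm10 build. Their versions, the annotation and the counting strand are not stated there. The authors deposited 2 signal columns, scaled reads and TPM, both rescaled by the authors between libraries. The TPM column summed to 969838 to 1022473 per library, so it is called the TPM scale. Scaled reads were not whole numbers, but a step could be found for each library of which 29.7% to 32.8% of low values (0.5 to 40) were whole multiples (tolerance 0.02), and this gave the depth estimates.

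The design foresaw a count test. Since these are no raw counts, log2 values were fitted with limma 3.58.1 in R 4.3.3, trend option on, using log2(scaled reads + 1) of 24183 genes with a mean of at least 1, with Benjamini-Hochberg adjustment and a threshold of 0.05. Fold changes on that scale understate low genes. GENCODE M21 matched 23829 identifiers. Transcripts were compared with BLAST 2.17.0 at 90% identity over 200 bases. Tables and plots used pandas 2.3.3, numpy 2.4.6 and matplotlib 3.10.9 in Python 3.11.15. Replicate pairs differed by more than counting noise (chi-square per degree of freedom 2.95 to 7.02).

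The members, gene lists, rules and tests were chosen with earlier results of these data known, and the neighbouring genes after the files were seen. Named genes are the members, up to 8 called other keratins at 1 TPM or above, up to 4 members of each list by adjusted p, defining markers, and the 8 genes most like Krt8 and Krt18, of which 1 is not reported here. Alternatives were other filters, pseudocounts, scalings, the TPM column, a replicate block, centring per chromosome and leaving out each library.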

Additional observations from a re-analysis of the deposited data

How the results depend on the processing

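The directions of all 7 keratins held under every alternative. With libraries rescaled to equal totals, which moved the median of all genes to -0.15, the log2 fold changes of Krt8, Krt18, Krt19 and Krt20 were 4.63, 5.04, 3.39 and 4.27. With values centred per chromosome they were 4.72, 5.13, 3.94 and 4.81. With the TPM column, where a pseudocount of 1 is large beside low genes, those of Krt7, Krt8, Krt18, Krt19, Krt20, Krt23 and Krt80 were 3.64, 4.69, 5.08, 3.38, 1.77, 0.26 and -0.33. A pseudocount of 5 gave 4.08 for Krt20 and 1.43 for Krt23. Leaving out 1 library gave 4.64 to 5.03 for Krt7, 4.77 to 4.799 for Krt8, 5.18 to 5.21 for Krt18, 3.50 to 3.59 for Krt19, 4.36 to 4.46 for Krt20, 1.73 to 2.23 for Krt23 and -1.08 to -0.57 for Krt80. In scaled reads the Krt8 to Krt18 ratio was 1.49 in KO and 1.98 in WT libraries, and that of type II to type I members 1.36 and 1.57.

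Genes called lower among other intermediate filaments were 8 with equal totals, those among filament partners 5 with equal totals and with the TPM column, and those among junction genes 1 when a mean of 10 scaled reads was required. Stem cell markers called higher were 2 with chromosome centring. Equal totals turned Eif4b (-0.0723), Epcam (-0.00671), Sp1 (-0.00527) and Nanog (-0.12), and chromosome centring turned Smarce1 (0.35), Eif1 (0.20) and Jund (0.0610). Over all genes, 6309 were higher and 9147 lower with equal totals, so that 40.8% of called genes were higher, against 53.8% as deposited. Same-numbered libraries did not deviate together (correlations 0.00664 to 0.0316), so the numbers do not pair them. With the replicate block 8183 genes were higher and 6927 lower, against 8137 and 6998 without it, and other keratins stayed at 2 higher and 10 lower. Few reads lie behind some values, with 16 to 33 reads in KO and 4 to 6 in WT libraries for Krt23, and a coefficient of variation of 30.04% for Krt7 in WT libraries. The part of depth in that spread was not tested.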
